A study of Arabidopsis thaliana with 12 samples.

Results

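RNA-seq libraries of emf1-2 seedlings were set directly against those of clf28swn7 seedlings, gene by gene, with 3 libraries of each and without the WT libraries. All 33602 genes of the deposited table entered the comparison, and the 20018 genes with an FPKM (a fragment count scaled for transcript length and library size) of at least 1 in at least 3 of the 6 libraries were tested. The emf1-2 seedlings carried a mutation in EMBRYONIC FLOWER1 (EMF1), and the clf28swn7 seedlings carried the clf28 and swn7 alleles of CURLY LEAF (CLF) and SWINGER (SWN). Both lines were in the Col-0 ecotype, were whole seedlings of 10 days after germination, and were grown in long days on agar with sucrose. WT (Col-0) levels of the same age are given as side values only, and no agent distinguished the groups. Each genotype was represented by 1 mutant line. The study's methods call the 3 libraries of a genotype independent biological replicates, without saying whether these were separate sowings, and the p-values measure the spread between them.

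Polycomb repressive complex 2 (PRC2) methylates lysine 27 of histone H3, and in the plant body CLF and SWN are its methyltransferases. EMF1 is a plant-specific protein that co-purifies with PRC2 and is needed for repression of many of the same genes. A direct comparison asks which transcripts differ in level between whole seedlings without EMF1 function and those without CLF and SWN function. Genes kept silent in this way in seedlings include the flower organ identity genes and the seed maturation programme, in which B3-domain transcription factors switch on storage proteins, oil bodies and late embryogenesis abundant (LEA) proteins.

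By the size of the smallest FPKM steps, emf1-2 libraries held between 18900000 and 20200000 mapped fragments and clf28swn7 libraries between 14100000 and 14900000, so low FPKM values are coarser in clf28swn7. In emf1-2, 19255 to 19368 genes reached 1 FPKM, and in clf28swn7 19603 to 19781. On the log2(FPKM + 1) scale the libraries correlated across genes at 0.973 to 0.984 within emf1-2, at 0.991 to 0.992 within clf28swn7 and at 0.860 to 0.878 between the genotypes. The emf1-2 replicates were thus less alike, with a median SD per gene of 0.13 log2 units, against 0.096 in clf28swn7.

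The mutated genes were examined first. CLF (AT2G23380, TAIR10.1 chromosome 2, 9955092 to 9960386) had 11.7, 11.2 and 9.36 FPKM in emf1-2, against 0.511, 0.224 and 0.170 FPKM in clf28swn7. SWN (AT4G02020, chromosome 4 from 886580 to 891987) had 24.9, 28.1 and 27.4 FPKM in emf1-2, against 3.80, 3.62 and 3.35 FPKM in clf28swn7. Both genes separated the libraries as the labels state. EMF1 (AT5G11530, chromosome 5 from 3695792 to 3701549) had 47.0, 57.4 and 46.2 FPKM in emf1-2, against 56.0, 53.4 and 52.6 FPKM in clf28swn7, where WT libraries had between 7.32 and 8.79 FPKM. The EMF1 ranges overlapped, so the transcript level gives no check of the emf1-2 label.

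Fold changes are emf1-2 over clf28swn7 on the log2(FPKM + 1) scale, and a gene was called when its change reached 1 log2 unit either way with a limma adjusted p under 0.05. In emf1-2, 1152 of the 20018 tested genes (5.75%) were higher and 1742 (8.70%) were lower than in clf28swn7. The lower genes reached further: 217 were lower by at least 3 log2 units, while 47 were higher by as much. With the unadjusted limma p in place of the adjusted p, 1157 genes were higher and 1747 lower, so the adjustment decided few calls. The 3 emf1-2 libraries did not overlap the 3 clf28swn7 libraries for 66.3% of all tested genes, so a lack of overlap by itself marks nothing special here. Across the tested genes the median change was 0.13 log2 units. Of the called genes, 195 higher ones lay under 1 FPKM in every clf28swn7 library and 392 lower ones lay under 1 FPKM in every emf1-2 library, so these passed the minimum through one genotype alone.

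**Figure D1:**
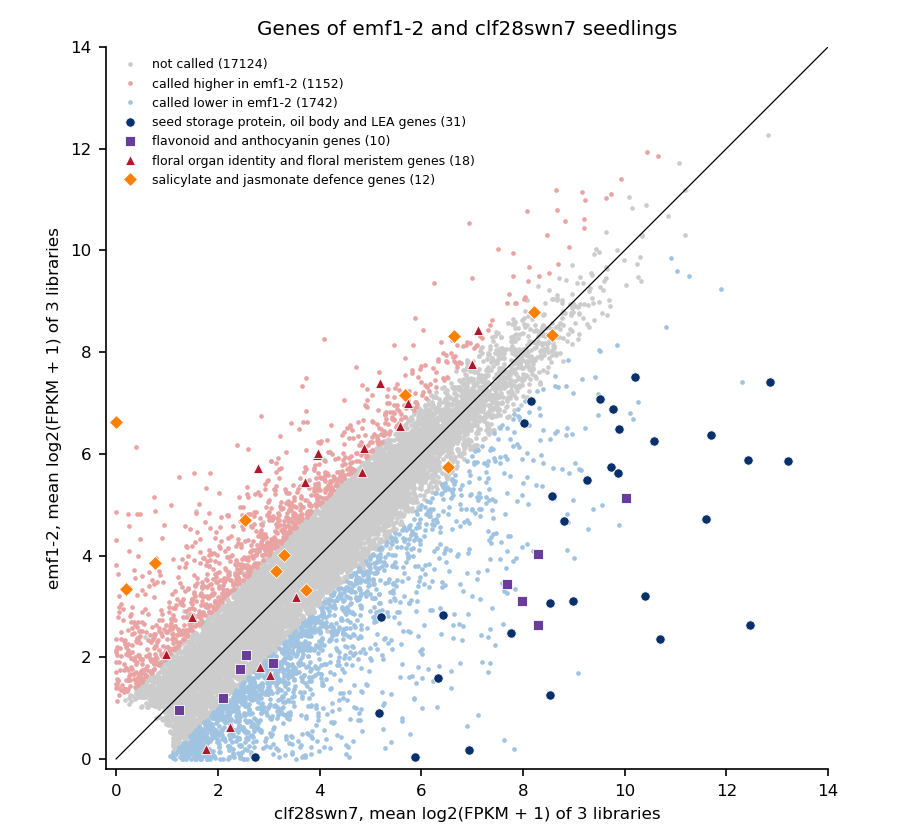
Mean log2(FPKM + 1) of the 3 emf1-2 libraries (vertical axis) against that of the 3 clf28swn7 libraries (horizontal axis) for the 20018 tested genes, with the line of equal levels and 4 gene lists as larger symbols (numbers in brackets count genes). All 31 seed storage, oil body and LEA genes lie below the line, and 5 flavonoid genes also lie well below it.

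Among called genes whose libraries did not overlap, the 12 that were lowest in emf1-2 were mostly seed genes. SESA3, a seed storage albumin (AT4G27160, chromosome 4 from 13611796 to 13612563), had 39.9, 1.48 and 1.35 FPKM in emf1-2, against 6221, 5231 and 5618 FPKM in clf28swn7, a log2 fold change of -9.84 with a standard error of 1.05 (limma adjusted p = 0.000339). The first emf1-2 library stood above the other 2, but all 3 lay far below clf28swn7. CRU2 (AT1G03880 by the RefSeq symbol, a locus also known as CRB), a cruciferin storage globulin, followed at -8.34, then the glycine-rich protein gene AT2G05580 at -7.64, the hydroxyproline-rich glycoprotein gene MEE26 at -7.38 and the cruciferin gene CRU3 at -7.36. The others were the cupin gene PAP85, the embryo-specific protein gene ATS3, the albumin genes SESA4, SESA1 and SESA2, the cupin gene AT1G03890, which some sources call CRU2, and the snoRNA gene U3D, between -7.28 and -6.26. The U3D annotation overlaps AT5G54070 on the opposite strand over 303 bases, and the albumin genes are neighbours of 1 family whose likeness was not measured, so the share of reads of each is uncertain.

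The 12 genes that were highest in emf1-2 had no such common theme. Of these, PR1, a pathogen-response marker, was listed at 0 in all 3 clf28swn7 libraries and had 116, 9.31 and 812 FPKM in emf1-2 (limma adjusted p = 0.00643). AT3G12000, an S-locus related gene, was listed at 0 in clf28swn7 and had an even 27, 28.7 and 28.1 FPKM in emf1-2. AIG1, a GTP-binding protein gene of the defence response, was also listed at 0 in clf28swn7 and had 6.74, 15.3 and 61.1 FPKM in emf1-2. PR1 and AIG1 therefore differed widely among the emf1-2 libraries, with replicate 3 highest in both, whereas AT3G12000 did not.

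Others of this group had low but measured levels in clf28swn7. AT1G16950, of unknown function, had 45.2, 83.1 and 89.0 FPKM in emf1-2, against 0.637, 0.244 and 0.127 FPKM in clf28swn7. XPL1, an enzyme that methylates phosphoethanolamine for membrane lipids, had 40.6, 29.7 and 33.7 FPKM in emf1-2, against 0.554, 0.498 and 0.997 FPKM in clf28swn7. CES, a bHLH factor of the brassinosteroid response, had 20.14, 34.6 and 28.8 FPKM in emf1-2, against 0.244, 0.533 and 0.376 FPKM in clf28swn7, where WT listed it at 0. ASN1, a glutamine-dependent asparagine synthase, had 59.0, 40.5 and 39.2 FPKM in emf1-2, against 1.88, 1.38 and 0.946 FPKM in clf28swn7, and WT lay between 185 and 215 FPKM. For ASN1 and XPL1 the emf1-2 level was thus the one nearer to WT, which did not hold for CES or AT1G16950. The remaining members, AT3G28510, AT4G05370, AT1G27565, AT2G05540 and AT1G21540, had log2 fold changes between 4.1 and 4.57.

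Processes were compared with 20 gene lists of 377 genes, of which 322 could be tested. The lists were chosen with earlier results of these data known, so their order describes these lists only. The share called is to be read against 5.75% higher and 8.70% lower among all tested genes, and the median of a list against 0.13. The lists that were lowest in emf1-2 by their median were the seed storage protein, oil body and LEA genes (-4.33), the flavonoid and anthocyanin genes (-2.73), the aliphatic glucosinolate genes (-1.73) and the embryo maturation regulators (-1.60). The flavonoid median falls between 5 members called lower and 5 that were not called, so it describes neither group. The highest medians were those of the floral organ genes (1.16) and the salicylate and jasmonate defence genes (1.1). This order holds for the members that reached the FPKM minimum: with no filter on low values the flavonoid median was -0.79 and the defence median 0.65, with the defence list behind carbon fixation at 0.67 and lipid transfer proteins at 0.66.

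**Figure D2:**
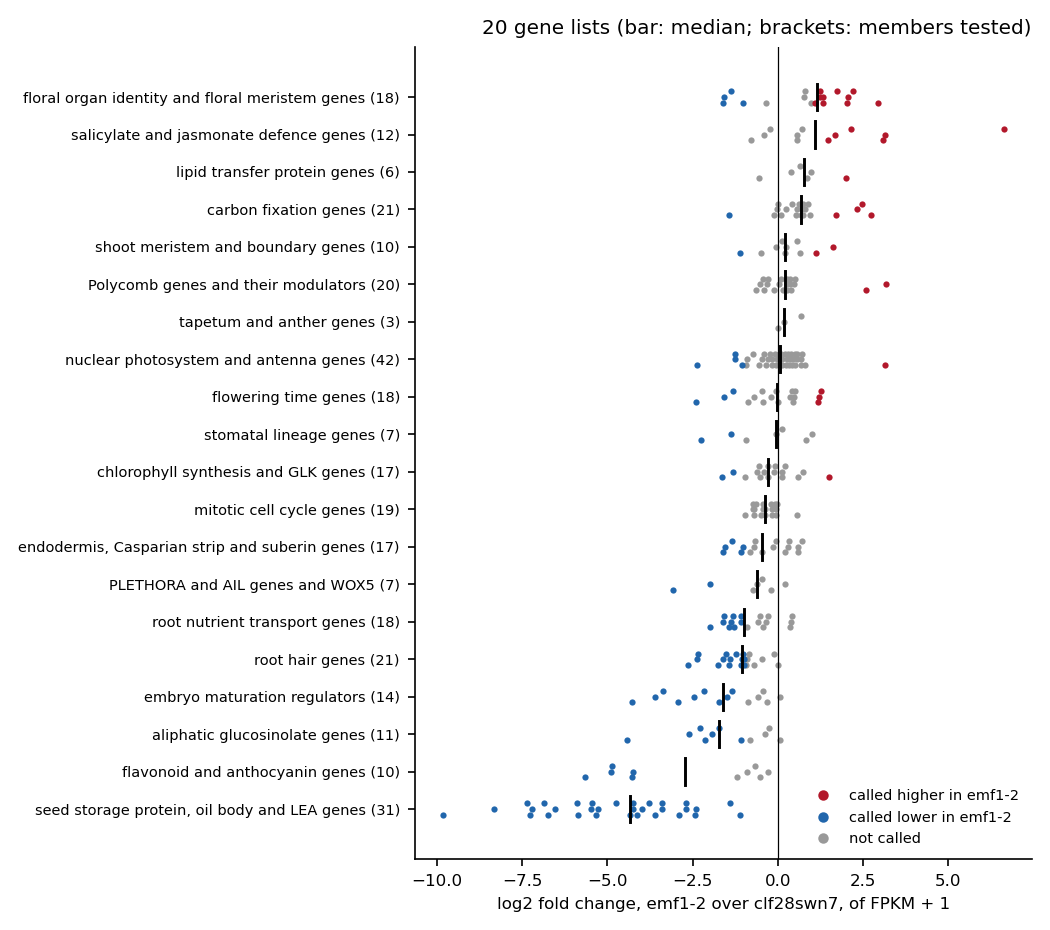
Log2 fold change of FPKM + 1, emf1-2 over clf28swn7, for each tested member (point) of 20 gene lists ordered by their median (black bar), with the number of tested members in brackets. Red points were called higher in emf1-2, blue points lower, and grey points were not called. The seed storage, oil body and LEA list is blue throughout, from -9.84 to -1.12, and the floral organ list runs from -1.61 to 2.93. The rightmost defence point is PR1, listed at 0 in clf28swn7, whose place depends on the pseudocount.

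Among the 20 lists, that of seed storage, oil body and LEA genes separated the mutants most by its median. All 31 listed seed storage protein, oil body and LEA genes were tested and all 31 were lower in emf1-2, with a median log2 fold change of -4.33, and 3 of them passed the FPKM minimum through clf28swn7 alone. Their FPKM summed to 2375, 1315 and 1226.5 in the emf1-2 libraries, against 48009, 46703 and 51152 in clf28swn7, which is 0.380%, 0.207% and 0.186% of all FPKM in emf1-2 and 7.08%, 6.89% and 7.50% in clf28swn7. In WT the sum was between 13 and 28.0 FPKM. The emf1-2 seedlings thus had more of these transcripts than WT and far fewer than clf28swn7.

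Storage proteins are given first. CRU3 (AT4G28520, chromosome 4 from 14087556 to 14089796) had 157, 32.7 and 35.1 FPKM in emf1-2, against 9077, 9648 and 9803 FPKM in clf28swn7. CRA1, another cruciferin, had 317, 113 and 133 FPKM in emf1-2, against 7042, 7510 and 7600 FPKM in clf28swn7. Neither gene had ranges that met. Among oil body and seed oil genes, OLEO1, the main oleosin coat protein of oil bodies, had 79.2, 92.7 and 74.5 FPKM in emf1-2, against 3066, 3262 and 3745 FPKM in clf28swn7 (log2 fold change -5.34, standard error 0.12). FAE1, which elongates fatty acids for seed oil, had 0.031, 0.0324 and 0 FPKM in emf1-2, against 48.9, 57.8 and 68.8 FPKM in clf28swn7. This gene was practically silent in emf1-2, and WT listed it at 0. The steroleosin gene HSD1 fell by 4.74 log2 units, but it has a near-identical copy in the genome and its reads cannot be assigned with certainty.

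LEA genes encode proteins that protect drying embryos. EM1 had 178, 88.9 and 43.5 FPKM in emf1-2, against 864, 1136 and 860 FPKM in clf28swn7. LEA4-1 had 206, 106 and 103 FPKM in emf1-2, against 307, 290 and 263 FPKM in clf28swn7, the smallest change of the list at -1.12, which was not called without emf1-2 replicate 2 or 3. The first emf1-2 library was the highest of its group for 20 of the 31 genes. Without emf1-2 replicate 2, 29 of the 31 genes were called lower, and 30 with no filter.

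The bases upstream of the annotated start were read for this list because all its members moved one way. In the 250 bases upstream, the RY element CATGCA, which B3-domain seed regulators bind, occurred on either strand in 21 of 31 members (67.7%), against 8.43% of 27443 protein-coding genes, and the G-box core CACGTG in 14 of 31 (45.2%), against 6.49%. Of the other lists read, the flavonoid list held the G-box core in 5 of 14 members (35.7%) and RY in 2 of 14 (14.3%), and the defence list held each in 2 of 14. Overlapping matches were counted, and a match is a run of letters, not a site shown to be bound. One strong separator of each family, an albumin, a cruciferin and an oleosin, are shown 5′ to 3′ with RY letters in capitals, all from the plus strand of chromosome 4 in RefSeq's TAIR10.1. SESA3 (13611546 to 13611795) holds 7 matches, CRU3 (14087306 to 14087555) holds 1 and OLEO1 (12900180 to 12900429) holds 3.
SESA3: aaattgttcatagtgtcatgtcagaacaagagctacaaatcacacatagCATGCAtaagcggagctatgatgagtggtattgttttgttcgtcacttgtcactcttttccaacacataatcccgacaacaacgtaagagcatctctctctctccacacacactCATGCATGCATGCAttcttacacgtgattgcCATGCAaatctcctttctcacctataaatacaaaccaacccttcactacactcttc
CRU3: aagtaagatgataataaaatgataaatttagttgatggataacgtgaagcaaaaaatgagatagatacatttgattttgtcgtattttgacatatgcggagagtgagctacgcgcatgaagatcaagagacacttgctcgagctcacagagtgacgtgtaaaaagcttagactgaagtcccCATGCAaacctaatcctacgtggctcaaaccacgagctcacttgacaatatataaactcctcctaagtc
OLEO1: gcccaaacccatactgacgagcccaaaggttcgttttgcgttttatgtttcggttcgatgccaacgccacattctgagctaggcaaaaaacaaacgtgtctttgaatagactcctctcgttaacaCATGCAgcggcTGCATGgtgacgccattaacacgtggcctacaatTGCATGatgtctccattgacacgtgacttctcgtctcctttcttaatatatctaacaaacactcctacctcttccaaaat

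The regulators of seed maturation differed unevenly. Of 15 listed, 14 were tested, 9 were lower and none was higher, with a median of -1.60. FUS3, a B3-domain regulator (AT3G26790, chromosome 3 from 9853828 to 9856212), had 1.05, 1.07 and 0.611 FPKM in emf1-2, against 35.3, 31.5 and 41.7 FPKM in clf28swn7 (log2 fold change -4.28, standard error 0.14, limma adjusted p = 5.11e-06). L1L, a NF-YB factor related to LEC1, had 0.199, 0.0462 and 0.302 FPKM in emf1-2, against 12.8, 10.2 and 10.8 FPKM in clf28swn7. The bZIP factor gene bZIP67, which acts with them on storage genes, had 0.0994, 0 and 0 FPKM in emf1-2, against 10.6, 11.4 and 12.9 FPKM in clf28swn7. These 3 genes were thus at about 1 FPKM or less in emf1-2, where WT had at most 0.139 FPKM of each.

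Other regulators stayed well above WT in emf1-2. ABI3, the B3 factor of the abscisic acid response in seeds, had 37.5, 27 and 19.7 FPKM in emf1-2, against 89.2, 91.8 and 94.1 FPKM in clf28swn7, and WT had at most 0.0452 FPKM. ABI4, an AP2-type factor of the same response, had 31.1, 20.9 and 19.9 FPKM in emf1-2, against 64.2, 71.4 and 66.6 FPKM in clf28swn7, and WT listed it at 0. ABI5, a bZIP factor downstream of abscisic acid, had 97.5, 80.0 and 77.2 FPKM in emf1-2, against 104, 115 and 100 FPKM in clf28swn7, a difference of -0.33 that was not called. The mutants therefore shared high ABI5 and parted at FUS3, L1L and bZIP67.

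The embryo factor gene BBM had a log2 fold change of -2.47, the dormancy gene DOG1 -2.92, the bZIP gene EEL -2.17, the oil synthesis regulator WRI1 -1.35, ABI3 -1.72 and ABI4 -1.48. LEC2 and AGL15 lay below clf28swn7 in every library without being called, at -0.89 and -0.58. LEC1 was not tested; it was listed at 0 in emf1-2 and at 1.23, 1.04 and 0.409 FPKM in clf28swn7. The genes of the B3 repressors VAL1 and VAL2, which silence this programme after germination, had differences of -0.43 and 0.06 and were not called.

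**Figure D3:**
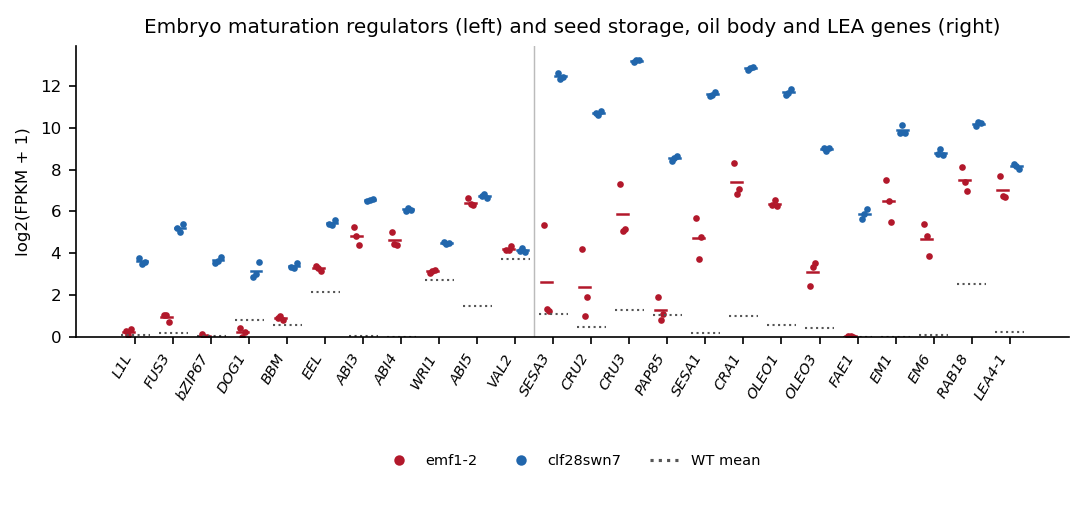
log2(FPKM + 1) of embryo maturation regulators (left of the line) and of seed storage, oil body and LEA genes (right) in the 3 emf1-2 libraries (red points) and the 3 clf28swn7 libraries (blue points), with group means as bars and log2(mean WT FPKM + 1) as dotted lines. FUS3, L1L and bZIP67 sit far closer to the WT line in emf1-2 than in clf28swn7, while ABI3, ABI4 and ABI5 sit above it in both mutants.

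Flower organ genes went mostly the other way. Of 22 listed, 18 were tested, 10 were higher and 4 lower in emf1-2, with a median of 1.16, and their FPKM summed to 1317, 1412 and 1223 in emf1-2, against 546, 530 and 538 in clf28swn7 and at most 21.4 in WT. Both mutants thus had flower organ transcripts, with more in emf1-2. AP3, a petal and stamen identity gene, had 333, 378 and 330 FPKM in emf1-2, against 137, 137 and 140 FPKM in clf28swn7. AG, which specifies stamens and carpels, had 69.5, 68.8 and 48.8 FPKM in emf1-2, against 15.9, 13 and 14.3 FPKM in clf28swn7 (log2 fold change 2.03, standard error 0.15). The group ranges did not meet for either gene.

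Of the 10 higher genes, TT16, a MADS-box gene of the ovule integuments, had 51.0, 58.4 and 46.8 FPKM in emf1-2, against 5.01, 6.64 and 6.27 FPKM in clf28swn7, the largest change of the list at 2.93. CRC, a carpel and nectary regulator, had 217, 172 and 124 FPKM in emf1-2, against 41.5, 32.3 and 33.4 FPKM in clf28swn7. The ovule identity gene STK had a log2 fold change of 2.05 and the carpel gene SHP2 one of 1.73. SHP2 overlaps AT2G42835 on the opposite strand over 1756 bases, and the deposited values do not tell the strands apart in the sources used here. The cofactor genes SEP1 and SEP2 rose by 1.23 and 1.25 and the boundary gene SUP by 1.31, whereas SEP3 at 0.96, PI at 0.76 and the carpel gene SPT at 0.81 lay above clf28swn7 in every library without reaching the threshold.

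The 4 lower genes were AP1, FUL, SEP4 and AGL6. AP1, which gives the floral meristem its identity, had 2.27, 1.70 and 2.49 FPKM in emf1-2, against 8.14, 7.59 and 5.96 FPKM in clf28swn7. FUL, a related gene of meristems and fruits, had 0.539, 0.620 and 0.491 FPKM in emf1-2, against 5.01, 2.92 and 3.49 FPKM in clf28swn7. SEP4 had 0.143, 0.113 and 0.174 FPKM in emf1-2, against 1.95, 2.33 and 3.02 FPKM in clf28swn7, where WT had between 4.34 and 5.50 FPKM. AGL6 had a log2 fold change of -1.03 and was no longer called without emf1-2 replicate 3 or clf28swn7 replicate 3. CAL, the closest relative of AP1, went the other way, at 1.09, but was not called without clf28swn7 replicate 3. LFY, UFO, KNU and AGL13 did not reach the FPKM minimum, and SHP1 had a difference of -0.36.

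Flowering time genes were mixed, with 3 higher, 3 lower and 12 not called among 18 tested of 21 listed, and a median of -0.03. FLC, the repressor of flowering, had 17.9, 26.1 and 21.4 FPKM in emf1-2, against 66.5, 67.7 and 64.5 FPKM in clf28swn7, and both mutants lay above WT at 2.76 to 3.52 FPKM. The FLC annotation overlaps an opposite-strand transcript over 6067 bases. AGL24, a promoter of flowering, had 6.49, 5.61 and 5.67 FPKM in emf1-2, against 32.5, 37.9 and 37.1 FPKM in clf28swn7. TFL1, which keeps shoot meristems indeterminate, had 0.455, 0.234 and 0.723 FPKM in emf1-2, against 2.98, 2.67 and 2.33 FPKM in clf28swn7. All 3 were thus higher in clf28swn7. AGL14, AGL19 and AGL42, relatives of SOC1, rose by 1.26, 1.19 and 1.16 in emf1-2, AGL19 not without clf28swn7 replicate 3. SOC1 itself had a difference of 0.37, CO of 0.50, FD of -0.20, SVP of -0.71, SPL4 of -0.01, SPL5 of -0.47 and SPL9 of -0.06, and the FLC relatives FLM and MAF2 to MAF5 lay between -0.88 and 0.49, none of them called. FT, TSF and SPL3 did not reach the minimum.

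In the shoot meristem and boundary list, 2 of 10 tested genes were higher and 1 lower, with a median of 0.22. STM, which maintains the shoot meristem (AT1G62360, chromosome 1 from 23058582 to 23062063), had 110, 103 and 87.4 FPKM in emf1-2, against 32.4, 32.6 and 30.6 FPKM in clf28swn7. The boundary genes CUC2 and CUC3 differed in opposite directions. CUC2 had 43.3, 33.6 and 34.4 FPKM in emf1-2, against 17, 14.3 and 18 FPKM in clf28swn7, and CUC3 had 8.49, 7.25 and 7.51 FPKM in emf1-2, against 17.2, 18.3 and 17.8 FPKM in clf28swn7. CUC2 fell just short of the threshold, at 1.00, with median-of-ratios scaling. The meristem genes BP, KNAT2, KNAT6, CLV1, CUC1, AS1 and AS2 had differences between -0.49 and 0.66 and were not called, and WUS and CLV3 did not reach the minimum.

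**Figure D4:**
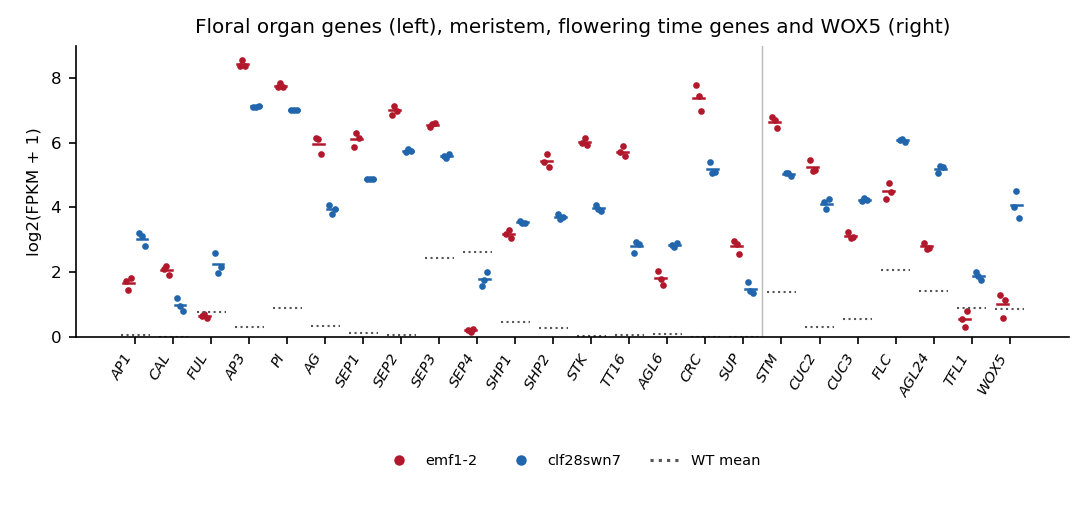
log2(FPKM + 1) of floral organ genes (left of the line) and of meristem and flowering time genes and WOX5 (right) in the 3 emf1-2 libraries (red points) and the 3 clf28swn7 libraries (blue points), with group means as bars and log2(mean WT FPKM + 1) as dotted lines. AG, STK, TT16, CRC and STM are higher in emf1-2, while AP1, FUL, SEP4, FLC, AGL24, TFL1 and WOX5 are higher in clf28swn7.

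Genes known for their part in roots were compared in 4 lists. The paper describes a WT-like root and a stunted shoot in emf1-2, and in clf28swn7 a stunted root with embryonic traits. For genes with more H3K27me3 in emf1-2 than in WT, it reasons that root cells made up more of whole emf1-2 seedlings. That reasoning concerned ChIP-seq levels against WT, not RNA levels against clf28swn7. The part of organ shares in the values below was not tested. WOX5, a marker of the root stem cell niche, had 1.44, 0.494 and 1.19 FPKM in emf1-2, against 15.1, 21.8 and 11.8 FPKM in clf28swn7, where WT had between 0.661 and 0.888 FPKM (log2 fold change -3.07, standard error 0.26). Of the 7 tested PLETHORA, AIL and WOX5 genes of 8 listed, only WOX5 and the AIL gene AT1G72570, at -2.0, were called. PLT5 had 97.0, 64.9 and 59.7 FPKM in emf1-2, against 116, 127 and 116 FPKM in clf28swn7, and WT had between 2.13 and 2.46 FPKM. PLT1, PLT3, PLT7 and ANT had differences between -0.62 and 0.21, and PLT2 was not tested. High PLT5 was therefore common to both mutants, and high WOX5 was not.

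Of 26 root hair genes, 21 were tested, 14 were lower in emf1-2 and none was higher, with a median of -1.04, and 4 passed the minimum through clf28swn7 alone. RHS19, a peroxidase of root hair cells, had 4.13, 1.51 and 4.37 FPKM in emf1-2, against 29.2, 20.9 and 23.5 FPKM in clf28swn7. PRP3, a cell wall protein of root hairs, had 8.34, 1.60 and 4.75 FPKM in emf1-2, against 29.4, 20.6 and 29.2 FPKM in clf28swn7. AGP3 had 7.86, 2.52 and 5.84 FPKM in emf1-2, against 30.3, 28.4 and 29.5 FPKM in clf28swn7. WT had more than either mutant, between 55.7 and 73.2 FPKM of RHS19, 87.8 and 104 of PRP3 and 105 and 112 of AGP3. RHD6, the factor that starts hair formation, did not follow, with a difference of -0.12. Replicate 2 was the lowest emf1-2 library for 18 of the 21 tested genes, and without it 9 were called lower. In whole seedlings, fewer cells of a type and less RNA per cell cannot be told apart.

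The Casparian strip is the lignin seal around endodermal cells. PER64, a peroxidase that makes the strip, had 4.87, 2.5 and 3.12 FPKM in emf1-2, against 16.5, 10.8 and 10.7 FPKM in clf28swn7. The membrane scaffold gene CASP1 had 11.1, 2.57 and 4.03 FPKM in emf1-2, against 20.8, 13.6 and 15.7 FPKM in clf28swn7, and WT had between 58.9 and 70.4 FPKM. CASP2 and CASP4 had log2 fold changes of -1.35 and -1.02, and CASP4 was not called without emf1-2 replicate 2 or clf28swn7 replicate 1. In all, 5 of 17 tested genes of the endodermis list were called lower and none was called higher. CASP1 was no longer called without emf1-2 replicate 2 or 3 or without clf28swn7 replicate 1 or 3, and the list held 2 calls without emf1-2 replicate 2 and 3 without clf28swn7 replicate 1. Suberin genes were not called: GPAT5 had 0.60, FAR4 0.71, FAR5 0.22, CYP86A1 0.30, CYP86B1 0.32, FAR1 -0.15 and ASFT -0.06, and neither were the regulators MYB36 at 0.58, SCR at -0.66 and SHR at -0.69.

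Of 18 tested root nutrient transport genes, 9 were lower in emf1-2 and none was higher, with a median of -1.0, or -0.57 with no filter. The aquaporin gene TIP2;2 had 5.52, 3.46 and 3.41 FPKM in emf1-2, against 23.9, 17.5 and 16.8 FPKM in clf28swn7, and both lay far under WT at 175 to 219 FPKM. PHT1;1, a phosphate transporter, had 54.8, 43.7 and 37.7 FPKM in emf1-2, against 151, 147 and 120 FPKM in clf28swn7. FIT, the regulator of iron uptake, had 7.47, 4.37 and 4.38 FPKM in emf1-2, against 19.2, 18.1 and 15.7 FPKM in clf28swn7, and its target IRT1, the iron transporter, had a log2 fold change of -1.07, not called without emf1-2 replicate 1 or clf28swn7 replicate 1. The nitrate transport genes NRT1.1, NRT2.1 and NRT3.1 and the sulfate transporter gene SULTR1;2 were lower by 1.09 to 1.44 log2 units, NRT1.1 not without emf1-2 replicate 3. NRT1.5, AMT2 and BOR1 lay above clf28swn7 in every library, at 0.42, 0.36 and 0.38, and were not called.

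Photosystem and antenna genes did not separate the mutants as a whole. Of 42 tested nuclear photosystem and antenna genes, 1 was higher and 4 were lower in emf1-2, with a median of 0.06, and their FPKM summed to 8541, 7643 and 7862 in emf1-2, against 9647, 7534 and 8655 in clf28swn7 and at least 71196 in WT. Both mutants thus lay far below WT and overlapped each other. LHB1B1, an antenna gene, had 26.4, 16.6 and 6.64 FPKM in emf1-2, against 0.859, 1.07 and 0.347 FPKM in clf28swn7, and WT had between 3217 and 3529 FPKM. The antenna genes CAB1, LHCB2.2, LHCB2.3 and LHCB4.2 were lower in emf1-2, by 1.06 to 2.38 log2 units, CAB1 not without emf1-2 replicate 3 or clf28swn7 replicate 1 or after rescaling to TPM. CAB1, CAB2 and CAB3, LHB1B1 and LHB1B2, and the RBCS genes are near-identical copies whose reads may have been split in counting.

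Of 21 tested carbon fixation genes, 4 were higher, 1 was lower and 16 were not called, with a median of 0.67. CA2, a carbonic anhydrase gene, had 29.2, 12.4 and 16.7 FPKM in emf1-2, against 1.83, 1.47 and 2.58 FPKM in clf28swn7, and WT had at least 877 FPKM. CA1 had a log2 fold change of 2.47, the Rubisco small subunit gene RBCS1B of 2.31 and the Calvin cycle regulator gene CP12-2 of 1.70. FBA1, an aldolase gene, was the one that fell, by 1.43 log2 units. Among 17 chlorophyll synthesis and GLK genes, GLK1, a regulator of chloroplast development, fell by 1.64 log2 units and GUN4, a cofactor of chlorophyll synthesis, by 1.31. PORA, the protochlorophyllide reductase of dark-grown seedlings, rose by 1.49. Of 51 tested chloroplast genome transcripts, 4 (7.84%) were called higher and 3 (5.88%) lower, near the shares of all tested genes (5.75% and 8.70%). None of 23 tested mitochondrial genes was called by limma. At any size of change, 9 of these had an unadjusted limma p under 0.05. That share was not counted over all genes, so it marks nothing special in these genes.

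Flavonoid synthesis separated the mutants at its early steps. CHS, the entry enzyme (AT5G13930, chromosome 5 from 4488476 to 4490264), had 34.1, 35.1 and 32.3 FPKM in emf1-2, against 1081, 1053 and 1006 FPKM in clf28swn7 (log2 fold change -4.91, standard error 0.07, limma adjusted p = 6.19e-07). FLS1, which makes flavonols, had 6.27, 4.43 and 5.17 FPKM in emf1-2, against 317, 341 and 284 FPKM in clf28swn7. CHI, F3H and TT7, the steps between them, had log2 fold changes of -4.27, -4.88 and -4.25. WT levels lay near those of emf1-2, between 35.5 and 41.3 FPKM for CHS and between 8.91 and 10.5 FPKM for FLS1. F3H overlaps AT3G51238 on the opposite strand over 1588 bases.

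The late steps towards anthocyanins were not called with all 3 emf1-2 libraries in the fit. DFR had 0.801, 2.52 and 9.95 FPKM in emf1-2, against 4.26, 5.52 and 4.93 FPKM in clf28swn7, and LDOX had 0.726, 2.43 and 5.56 FPKM in emf1-2, against 4.07, 4.06 and 5.22 FPKM in clf28swn7. In both, emf1-2 replicates 1 and 2 lay below the clf28swn7 range and replicate 3 lay above it. The ranges also overlapped for TT19 and UF3GT, and the MYB regulator PAP1 had a difference of -0.90, so 5 of 10 tested genes were called lower. Without emf1-2 replicate 3, the library with the highest DFR level, 9 of the 10 were called lower.

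Aliphatic glucosinolates are defence compounds made from methionine. Of 11 tested genes of this pathway, 7 were lower in emf1-2 and none was higher, with a median of -1.73. CYP79F1, which starts the core structure, had 0.0943, 0.0742 and 0.0231 FPKM in emf1-2, against 24.6, 26.3 and 16.2 FPKM in clf28swn7, and WT had between 20.4 and 22.6 FPKM. CYP79F2, its neighbour and closest relative, had 4.86, 6.28 and 6.17 FPKM in emf1-2, against 12.5, 13.9 and 13.7 FPKM in clf28swn7, a call lost without emf1-2 replicate 1. The pair thus differed in size of change, though reads of such similar genes may be shared. MAM1 and BCAT4, of side-chain elongation, had log2 fold changes of -2.60 and -2.13, CYP83A1 of -2.28, the oxygenase gene FMO GS-OX1 of -1.94 and the transporter gene BAT5 of -1.73. MYB28, the main regulator of the pathway, had 12.3, 6.82 and 8.19 FPKM in emf1-2, against 8.62, 9.60 and 7.35 FPKM in clf28swn7, ranges that overlapped, and MAM3, SOT17 and SOT18 were not called. MYB29, the second regulator, was not tested, at 0.0636, 0 and 0 FPKM in emf1-2, against 0.797, 0.904 and 0.480 FPKM in clf28swn7.

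Of 12 tested defence genes, 6 were higher, none was lower and 6 were not called in emf1-2, with a median of 1.1. Besides PR1, the salicylate markers PR2 and PR5 were called. PR2, a glucanase, had 7.35, 7.13 and 42.8 FPKM in emf1-2, against 0.817, 1.08 and 0.279 FPKM in clf28swn7. PR5 had 10.2, 3.31 and 20.2 FPKM in emf1-2, against 0.181, 0.172 and 0.0709 FPKM in clf28swn7. WRKY70, a regulator of the salicylate response, had 17, 22.2 and 40.3 FPKM in emf1-2, against 4.58, 4.58 and 5.28 FPKM in clf28swn7. Replicate 3 was the highest emf1-2 library for all 4. Without it, 6 of the 12 tested genes were called higher and 1 lower. VSP1 and VSP2, storage phosphatases that jasmonate induces, were also higher, by 1.67 and 1.49. The jasmonate synthesis genes LOX2 and AOS, at -0.79 and -0.40, and the salicylate synthesis gene ICS1, at 0.72, were not called.

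**Figure D5:**
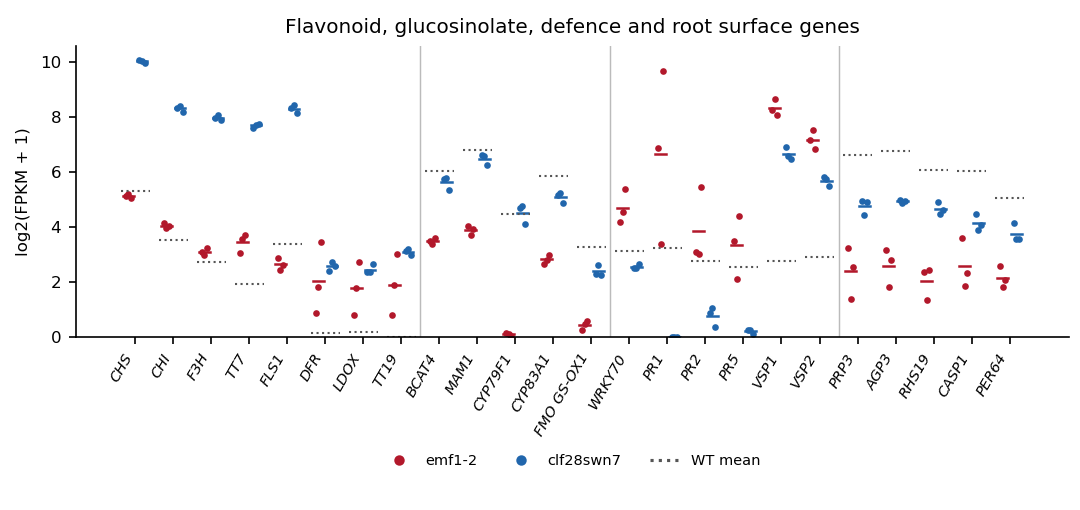
log2(FPKM + 1) of flavonoid genes, aliphatic glucosinolate genes, defence genes and root surface genes (4 blocks from left to right) in the 3 emf1-2 libraries (red points) and the 3 clf28swn7 libraries (blue points), with group means as bars and log2(mean WT FPKM + 1) as dotted lines. CHS to FLS1 are closer to the WT line in emf1-2 and far above it in clf28swn7, whereas glucosinolate genes are closer to the WT line in clf28swn7 and below it in emf1-2.

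Among lipid transfer protein genes, which mark the epidermis, LTP4 had 1955, 2214 and 2688 FPKM in emf1-2, against 649, 486 and 584 FPKM in clf28swn7, and WT had at most 1.03 FPKM. It was the 1 call among 6 tested, with 2 calls without emf1-2 replicate 3 or clf28swn7 replicate 3 or after rescaling to TPM. LTP3 was just short of the threshold at 0.98, and LTP2 had a difference of -0.54 with overlapping libraries.

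In the stomatal lineage, STOMAGEN, a signal from the leaf mesophyll that promotes stomata, had 1.39, 0.647 and 2.33 FPKM in emf1-2, against 11.9, 9.96 and 9.10 FPKM in clf28swn7. SCRM, a bHLH partner of the lineage factors, had 26.3, 26.8 and 26.3 FPKM in emf1-2, against 69.0, 71.7 and 71.5 FPKM in clf28swn7. The lineage factors themselves, SPCH at 0.83, MUTE at -0.92 and FAMA at -0.04, were not called. Of the 7 tested list members 2 were called lower and none higher, but 3 lower and 2 higher with a pseudocount of 0.1. Of the tapetum and anther genes, 3 of 20 reached the minimum and none of these was called by limma. At any size of change, 1 had an unadjusted limma p under 0.05, a share not counted over all genes. DYT1, MS1 and CYP703A2 were listed at 0 in all 6 libraries. LAP6, DRL1 and SPL8 were the 3 measured members, and their WT libraries reached the minimum as well.

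None of 19 mitotic cell cycle genes was called by limma, with a median of -0.38. At any size of change, 9 had an unadjusted limma p under 0.05. That share was not counted over all genes, 66.3% of which had libraries without overlap, so the 9 mark nothing special. CYCB1;1 had 9.77, 11.7 and 7.22 FPKM in emf1-2, against 7.24, 6.25 and 5.01 FPKM in clf28swn7, and the phragmoplast syntaxin gene KN had 29.5, 16.8 and 17.4 FPKM in emf1-2, against 38, 33.4 and 32.2 FPKM in clf28swn7.

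Among the 20 tested Polycomb genes and modulators, CLF and SWN were the only ones called. The PRC2 subunit genes EMF2, VRN2, FIE and MSI1 lay above clf28swn7 in every library, by 0.15 to 0.49. The PRC1 genes RING1A, RING1B, BMI1A and BMI1B lay below it in every library, by 0.30 to 0.66. Such a lack of overlap held for 66.3% of all tested genes, whose median change was 0.13. MEA, the third methyltransferase gene, was under the minimum, with 0.449, 0.941 and 0.713 FPKM in emf1-2, against 0.0621, 0.0293 and 0.0261 FPKM in clf28swn7.

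Genes that carry Polycomb marks in WT seedlings were counted from the gene groups the study defined by these marks. Of its 1393 only-H3K27me3 genes, 281 could be tested, of which 45 (16.0%) were higher and 72 (25.6%) lower in emf1-2, with a median of -0.10. Of the 849 H2AK121ub/H3K27me3 genes on chromosome 1 up to AT1G54820, the stretch that could be read, 401 were tested, of which 57 (14.2%) were higher and 125 (31.2%) lower, with a median of -0.43. All genes of this stretch gave 6.30% higher and 7.92% lower among 3334 tested. Of the marked genes, 43 of the 401 and 32 of the 281 passed the minimum through clf28swn7 alone, and 17 and 22 through emf1-2 alone. These shares are counts without a test.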

How the data were processed

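RNA-seq of whole seedlings gave 1 table of gene-level values for 12 libraries, 3 for each of 4 genotypes, of which the emf1-2 and clf28swn7 libraries were compared and the WT libraries served as side values. The authors deposited FPKM values, and per the submitters' processing notes they used FastQC, HISAT2 and StringTie with TAIR10. Versions and the use of strand in counting are not given in the sources used here. FPKM holds no counts, so fragment numbers per library were estimated from the smallest steps of 8472 genes with 1 exon and over 300 bases. The labels call the RNA polyA, while the named library kit is one for total RNA.

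Genes that reached 1 FPKM in 3 or more of the 6 libraries were tested with limma 3.58.1 in R 4.3.3 on log2(FPKM + 1), and p-values were adjusted by Benjamini and Hochberg over all 20018 tested genes. The pseudocount of 1 understates the change of low genes. A call needed a change of 1 log2 unit or more either way and an adjusted p under 0.05. The script was checked on simulated data. Named genes were the mutated genes, the 12 called genes with the largest change in each direction whose libraries did not overlap, and in each list the called members with the 3 largest changes in each direction and the members that define the process. Members and lists were chosen with earlier results of these data known. Gene positions and upstream bases came from RefSeq's TAIR10.1, in which 32835 of the 33602 gene IDs were found. Of the 377 listed genes, 96 overlap a gene on the opposite strand. Alternatives were another pseudocount, no filter, all 12 libraries in 1 fit, other moderation, a replicate block, other scalings and leaving out each library.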

Additional observations from a re-analysis of the deposited data

How the results depend on the processing

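The counts of 1152 higher and 1742 lower genes stayed within 1.5 times under all 14 alternatives. A pseudocount of 0.1 gave 1494 higher and 2152 lower genes, no filter 1167 and 1762, and a fit of all 12 libraries 1149 and 1750. Median-of-ratios scaling gave 930 higher and 2005 lower genes, so that 31.7% of calls were higher in place of 39.8%, and put the median of all genes at 0.01 in place of 0.13. Rescaling to TPM gave 1487 and 1764, with a median of 0.21. Leaving out 1 library gave between 1125 and 1261 higher and between 1698 and 1812 lower genes. The replicate block gave 1153 and 1743. The deviations of same-numbered libraries correlated at only 0.09, 0.07 and -0.01. They thus shared little, but these values cannot tell whether same-numbered libraries were handled together. No called gene turned to the opposite call.

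Of 144 called genes, the called members of the lists with CLF, SWN and the 12 strongest in each direction, 126 kept their call throughout. The 18 others include M17, LRL3, CPC, EXPA7, COW1 and LRX2 of the seed and root hair lists. AGL19 lost it without clf28swn7 replicate 3 (0.96), CAL likewise (0.99), AGL6 without emf1-2 replicate 3 (-0.92) or clf28swn7 replicate 3 (-0.99), CUC2 with median-of-ratios scaling, and CASP1 in 4 fits that left out 1 library. A pseudocount of 0.1 widened changes of low genes: the log2 fold change of CLF became 4.84, the log2 fold change of CYP79F1 -7.09 and the log2 fold change of SEP4 -3.36. With no filter the medians of the flavonoid, defence and root nutrient lists shrank to -0.79, 0.65 and -0.57. The median of the flowering time list turned to 0.04 with TPM, and that of the photosystem list to -0.07 with median-of-ratios scaling. Without clf28swn7 replicate 1, 3 endodermis genes were called. The causes were not tested. Estimated depth was lower in clf28swn7, which limits its low values most.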

Other observations

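Circadian clock genes, chosen after their values were seen, were compared too: of 14, 4 were lower, 5 were higher and 5 were not called in emf1-2. Among all tested genes 5.75% were higher and 8.70% lower, but given that choice the clock counts describe these genes only. LHY, a morning repressor of the clock, had 1.77, 2.57 and 1.89 FPKM in emf1-2, against 12.6, 14.1 and 13.5 FPKM in clf28swn7. CCA1, its partner, had 1.63, 2.23 and 1.77 FPKM in emf1-2, against 9.07, 7.23 and 7.91 FPKM in clf28swn7. WT had between 0.299 and 0.459 FPKM of LHY and between 0.471 and 0.760 FPKM of CCA1. PRR9 and RVE8 had log2 fold changes of -2.26 and -1.79. PRR7, a relative of PRR9, went the other way without being called, at 0.51. TOC1, an evening gene, had 104, 104 and 98.5 FPKM in emf1-2, against 42.0, 42.3 and 41.5 FPKM in clf28swn7, and WT had between 101.5 and 107.8 FPKM. ELF4, LUX and FKF1 had log2 fold changes of 1.81, 1.25 and 2.09. GI, ELF3, PRR5 and ZTL lay above clf28swn7 in every library, at 0.62, 0.24, 0.36 and 0.34, and were not called. JMJ30, a histone demethylase gene with an evening peak, had 43.1, 49.6 and 51.6 FPKM in emf1-2, against 1.81, 2.03 and 1.82 FPKM in clf28swn7, and WT had between 58.2 and 61.1 FPKM. The time of day at collection is not given in the sources used here, and its part in these values was not tested.

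Gene families were also counted by their annotated product, likewise after values were seen. Their shares are to be read against 5.75% higher and 8.70% lower among all tested genes, and their medians against 0.13. Of 43 tested extensin family genes, which encode cell wall glycoproteins, 3 (6.98%) were higher and 21 (48.8%) lower in emf1-2, with a median of -0.99. Of 62 peroxidase superfamily genes, 9 (14.5%) were higher and 26 (41.9%) lower, with a median of -0.46. Cysteine-rich receptor-like kinase genes went the other way, with 8 higher (40.0%) and none lower of 20 tested, and a median of 0.67. WRKY factor genes had 14 higher (24.1%) and 4 lower (6.90%) of 58, but a median of only 0.07. Ribosomal protein genes had 2 higher (0.627%) and 14 lower (4.39%) of 319, both shares under those of all tested genes, with a median of -0.18. Cytochrome P450 genes had 29 higher (19.6%) and 27 lower (18.2%) of 148, and mannose-binding lectin genes 1 (5.0%) and 8 (40.0%) of 20. Disease resistance genes had 5 higher (17.2%) and none lower of 29, and P-loop hydrolase genes 15 (9.55%) and 4 (2.55%) of 157.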
